A study of Mus musculus with 8 samples.

Results

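Methylation was described in 2 stretches of the mouse genome that hold satellite-like repeats, chromosome 2 from 98000001 to 99000000 and chromosome 9 from 3000001 to 4000000 in build mm10. They hold 987 of the 2361680 cytosines listed by reduced representation bisulfite sequencing (RRBS), 285 on chromosome 2 and 702 on chromosome 9. Both stretches were selected on the methylation differences and calls of the same table, so their size and number are described here with no test of the stretches against other DNA. The study used NIH3T3, an immortalised mouse embryo fibroblast line. Control clones 2 and 3 carried the control vector, and 14-3-3ε clones 10 and 12 carried the plasmid p3xFLAG-CMV-10 with 14-3-3ε, a protein that binds phosphorylated partners. Colonies of the transfected cells had been picked after selection in 800 µg/mL of the drug G418 and checked by western blot for the FLAG tag. Every clone therefore stands for a single colony, grown in medium with 10% serum, and each group had 2 clones in RRBS and 2 in RNA-seq.

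Satellite DNA is made of short units repeated head to tail, and in the mouse it fills the heterochromatin at and around the centromeres. The major satellite lies beside the centromere and the minor satellite at it. In most somatic cells their CpGs are heavily methylated, a state copied at replication by Dnmt1 with the help of Uhrf1 and the remodeller Hells, while Suv39h1 and Suv39h2 place the histone mark that HP1 proteins bind. A genome build holds only few copies of such arrays, so a listed cytosine can stand for many copies in the cell, and the sources used here do not state how reads with several matching places were handled.

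RRBS cuts DNA with MspI, which recognises CCGG, and reads the fragment ends after bisulfite conversion. The table gives for each cytosine a difference in percent methylation between the groups, a p-value and a q-value, with no value per clone and no coverage. Positive differences were taken as higher in 14-3-3ε clones, the usual convention of methylKit, and every direction rests on this reading, which the file does not state. Whether reads were pooled within groups is not stated either. If they were, the q-values measure read sampling and not the spread between clones. A cytosine is called here when its q-value is under 0.05. In RNA-seq all 9 fibroblast markers had a mean normalized count of at least 4843 in the authors' deposited table, while epithelial, endothelial and pluripotency markers were at 51.1 or less. Of the 2 blood markers 1 reached 110. The mouse gene of 14-3-3ε, Ywhae, had a log2 fold change of -0.03 (standard error 0.18, adjusted p 0.942) in the authors' deposited table, so this gene's counts did not show the overexpression and gave no check of the sign. The species of the 14-3-3ε sequence in the plasmid, and whether its reads count toward Ywhae, are not stated in the sources used here. Positive log2 fold changes were likewise read as higher in 14-3-3ε clones, which that table does not state either.

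Mean differences were positive in both stretches, toward 14-3-3ε clones, and slightly negative over the chromosomes around them. On chromosome 2 the mean difference was 4.16 percentage points over 285 cytosines, against -0.426 over the 177172 others of that chromosome. On chromosome 9 it was 3.47 points over 702 cytosines, against -0.398 over 122497 others. These means and all other means here are unweighted and were computed from the authors' deposited table. No interval can be set on them, since neither coverage nor clone values are known.

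Calls leaned to the higher side in both. Of the 285 cytosines on chromosome 2, 60 were called higher and 13 lower, which is 25.6%, and of the 702 on chromosome 9, 40 were higher and 26 lower, which is 9.40%. Over all listed cytosines 4.74% were called, 1.92% higher and 2.83% lower. A stricter limit of q under 0.01 was met by 60 cytosines on chromosome 2 and 40 on chromosome 9, against 2.47% of all cytosines. A difference of at least 10 points as well as q under 0.05 was met by 59 and 64, against 4.15% of all, and one of at least 25 points by 13 and 33, against 1.34%. The values of the same contrast chose the stretches, so these counts are descriptions.

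Set beside the other 1 Mb bins of the same chromosome with at least 100 listed cytosines, both stretches had the highest mean difference. On chromosome 2 the 171 other bins ranged from -6.10 to 1.50 points with a median of -0.529, and 32 of them were above 0. On chromosome 9 the 120 other bins ranged from -4.78 to 0.782 points with a median of -0.500, and 25 were above 0. The chromosome 2 stretch also had the highest called share, and the chromosome 9 stretch the fourth highest.

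The bins nearest in called share had means below 0. On chromosome 2 the nearest was the bin from 139000001 to 140000000, with 53 of 301 cytosines called (17.6%), 50 of them lower, and a mean of -6.10 points. The next were those from 42000001 and from 87000001, at 9.59% and 9.03%. In mean size of difference regardless of sign the stretch stood at 9.85 points, behind the bin from 139000001 at 10.5 and ahead of those from 16000001 at 9.19 and from 81000001 at 9.13. On chromosome 9 the highest called share, 14.9%, was in the bin from 10000001 to 11000000, where 15 of 22 calls were lower, a bin named after its value was seen. The nearest to the stretch in called share were the bins from 29000001 (9.47%), 11000001 (9.18%) and 92000001 (8.70%). The stretch had the largest mean size of difference, 10.1 points, ahead of bins at 8.23, 8.16 and 8.15 that start at 84000001, 6000001 and 81000001.

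**Figure D1:**
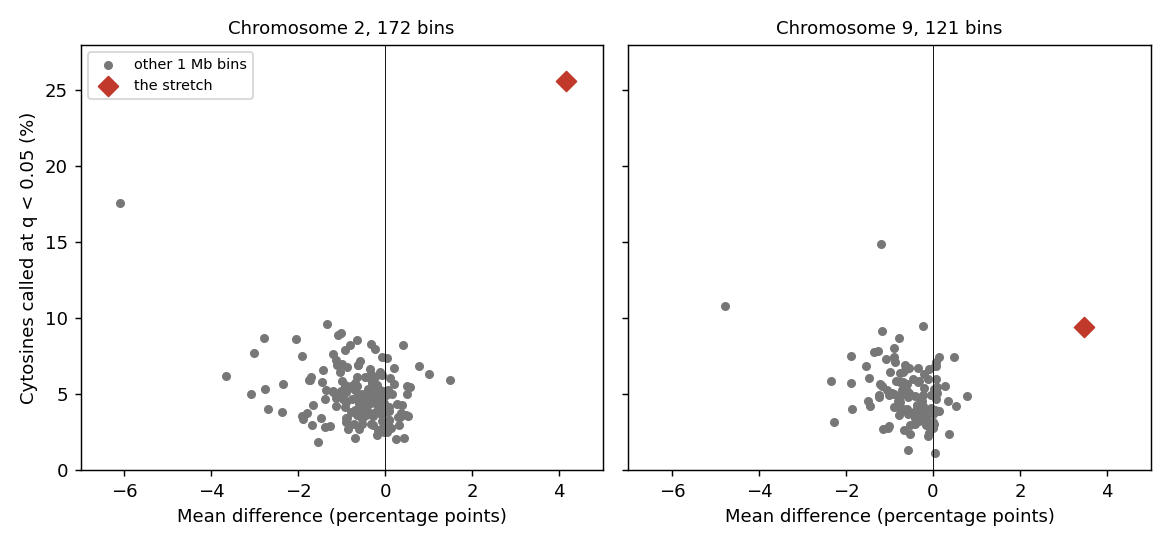
Share of cytosines called at q under 0.05 (%) against the mean difference (percentage points, 14-3-3ε minus control as read here) for each 1 Mb bin with at least 100 listed cytosines on chromosomes 2 and 9. Grey points are other bins and the red diamond is the stretch, which lies alone on the right of both panels at 4.16 and 3.47 points.

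Within each megabase the higher values were gathered in a short block. A block was defined by position alone, after the data had been seen: cytosines with no step over 10000 bp between neighbours, taken where the most pairs on 1 strand lay exactly 234 bp apart. On chromosome 2 it ran from 98660746 to 98678010, 17.3 kb with 111 listed cytosines, and the nearest listed cytosines were 29676 bp before and 32156 bp after it. On chromosome 9 it ran from 3000032, the first listed cytosine of the chromosome, to 3035435, 35.4 kb with 199 listed cytosines, and the next lay 19533 bp further on.

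The blocks held most of the higher calls. On chromosome 2, 57 of the 60 higher calls lay in the block and 6 of the 13 lower ones, and the mean difference was 10.8 points inside it and -0.0947 over the 174 cytosines outside. On chromosome 9, 30 of the 40 higher calls and none of the 26 lower ones lay in the block, and the mean was 16.1 points inside and -1.53 over the 503 outside. In the chromosome 9 block 167 of 199 differences were positive (83.9%), in that of chromosome 2 85 of 111 (76.6%), and over all cytosines 43.5%.

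Windows of 1 kb gave the same layout. The 3 windows of chromosome 2 with the most cytosines lay in the block, those from 98666001, 98662001 and 98667001. They held 29 higher and 4 lower calls of 38 cytosines, 9 and 2 of 33, and 18 and 0 of 20, with means of 14.4, 5.38 and 19.1 points. Of the 46 windows on chromosome 9 with at least 5 listed cytosines, 16 lay in the block and 15 of these had a mean above 0, with a median of 16.8 points. Of the 30 outside, 22 had a mean below 0, with a median of -1.49 points. On chromosome 2 all 4 such windows of the block had a mean above 0 and 8 of the 12 outside had one below 0. Of the windows with at least 5 listed cytosines, means above 10 points were reached in 13 on chromosome 9, 12 of them in the block, and in 3 on chromosome 2, 2 of them in the block.

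**Figure D2:**
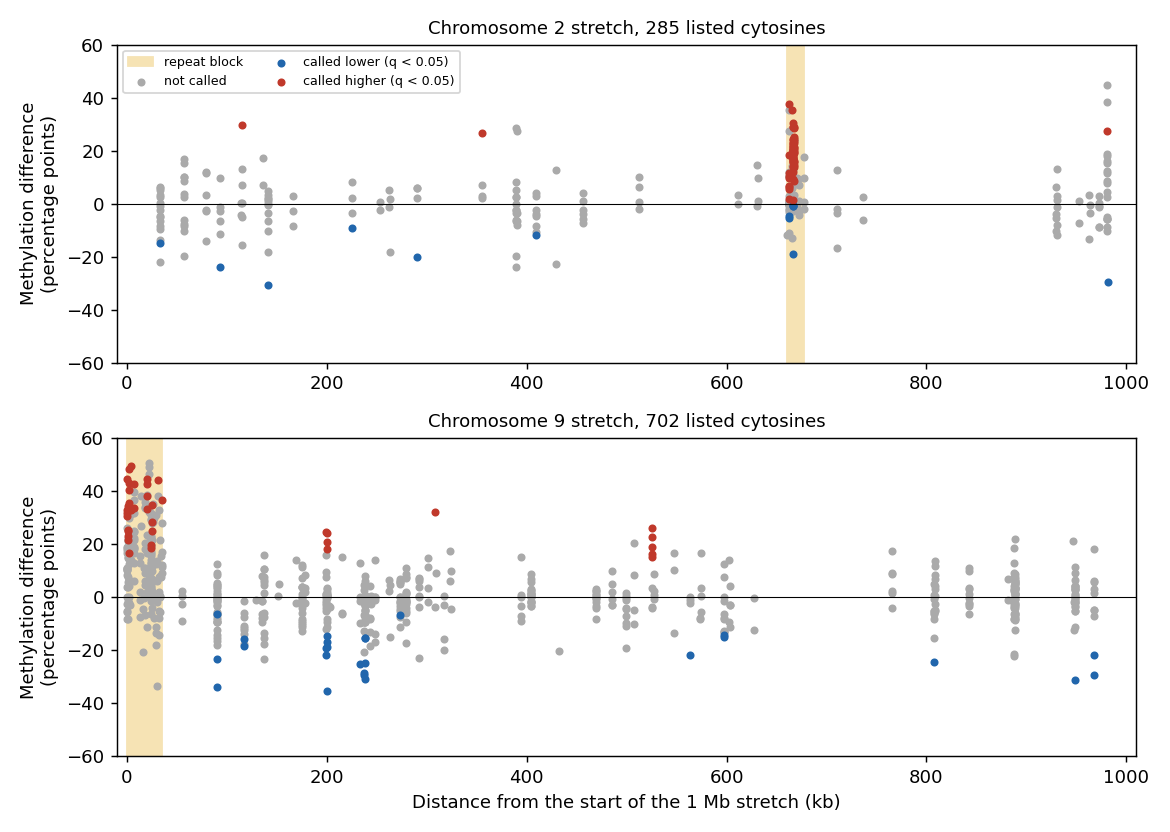
Difference of every listed cytosine (percentage points) against its distance from the start of the stretch (kb) on chromosome 2 (285 cytosines) and chromosome 9 (702). Red points were called higher, blue lower and grey were not called, and the shaded blocks hold 57 of 60 and 30 of 40 of the red points.

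The chromosome 2 block was uneven, and its calls came from 3 of 7 groups of cytosines that are separated by steps over 500 bp. The group with the most cytosines, 58 cytosines from 98666262 to 98667326, held 47 higher and 4 lower calls. Its last 48 cytosines, a run of 736 bp from 98666591, were all positive, between 3.14 and 30.2 points with a mean of 19.6, and 45 of them were called higher in the authors' deposited table. Both strands contributed to this run. The plus strand cytosine at 98666591 had the largest difference of the run, 30.2 points, with 16.7 on the minus strand of the same CpG in the authors' deposited table. The 3 cytosines of the run that were not called lay at 98666771, 98667325 and 98667326, with a q-value of 0.231, 0.595 and 0.0843 and a positive difference each in the authors' deposited table.

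The run had a sharp edge. The 10 cytosines just before the run, from 98666262 to 98666504, had a mean of -1.22 points, with 4 called lower and 2 higher. Of their 6 calls 4 were for differences under 1.5 points in size, such as -0.911 at 98666262 and 1.24 at 98666273 in the authors' deposited table. The other two were on both strands of 1 CpG and went opposite ways, -19.0 points at 98666384 and 11.8 at 98666385 in the authors' deposited table.

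Further groups of this block were mixed. That from 98662264 to 98662942 held 33 cytosines, of which 9 were higher and 2 lower, with a mean of 5.38 points. All 11 calls fell in its first 25 cytosines, up to 98662686, while the last 8 had a median of -0.0815 points and no call. The largest value of the block was here, 37.5 points on the plus strand at 98662280, beside 6.63 on the minus strand at 98662281 in the authors' deposited table. In the group from 98665063 to 98665192 1 of 7 cytosines was called, with 35.5 points at 98665063 in the authors' deposited table. The 12 cytosines in 3 groups from 98671013 onwards had no call, with group means of 4.60, 0.367 and 6.48 points.

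Differences in the chromosome 9 block were positive along most of its length, with fewer calls than on chromosome 2. Its 199 cytosines formed 19 groups, of which 17 had a mean above 0 and 7 held a call, all of them higher. The 58 cytosines from 3000032 to 3002779 had a mean of 16.8 points and 15 higher calls, and the 38 from 3023447 to 3024868 had 14.6 points and 5. Among windows with at least 5 listed cytosines, the one with the highest mean of the stretch, from 3022001 to 3023000, averaged 29.8 points over 8 cytosines, from 7.05 to 50.6, and none of them was called. It was followed by windows from 3007001 with 27.7 points over 5 cytosines and from 3004001 with 27.2 over 7. At 3020249, 3020261 and 3020289, neighbouring cytosines on the minus strand had differences of 42.6, 38.3 and 44.6 points, all called, in the authors' deposited table. The 2 groups with a mean below 0 held 2 cytosines from 3016022 and 5 from 3029724, with means of -12.6 and -1.70 points.

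**Figure D3:**
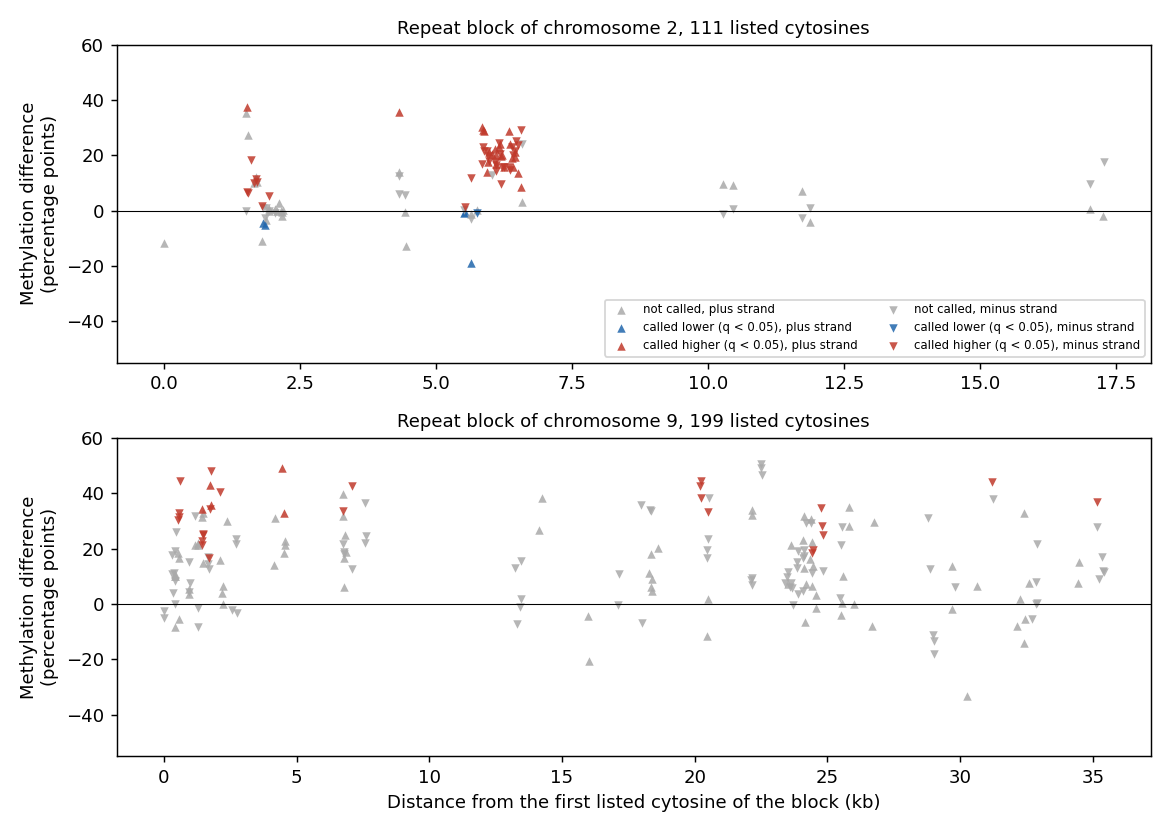
Difference of each cytosine (percentage points) against its distance from the first listed cytosine of the block (kb) for the blocks of chromosome 2 (111 cytosines) and chromosome 9 (199). Triangles point up for the plus strand and down for the minus strand, red was called higher, blue lower and grey not called. The dense run on chromosome 2 lies between 3.14 and 30.2 points, and on chromosome 9 167 of 199 triangles lie above 0.

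Positive differences appeared on both strands in each block. Both strands were listed at 51 CpGs of the chromosome 2 block, 33 of which were positive on both, and 23 were called higher on both. At 41 such CpGs of the chromosome 9 block 33 were positive on both and 3 were called higher on both. No CpG of either block was called lower on both. Over all 1078332 CpGs with both strands listed, 242454 were positive on both, 7143 were called higher on both and 10617 lower on both. Calls lower on both were thus rare everywhere, and their absence from so few CpGs in the blocks is not read as a result. Those called on both with the same sign, higher or lower, were 1.65%. On chromosome 9 the minus strand had 25 of 115 cytosines called and a mean of 17.7 points, and the plus strand 5 of 84 and 14.0. The shares on chromosome 2 were 33 of 52 on the minus strand and 30 of 59 on the plus strand.

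The positions of some listed cytosines repeated at a fixed distance. Between 200 and 300 bp, the distance with the most pairs of listed cytosines on the same strand over both stretches was 234 bp, the unit length of the mouse major satellite. There were 16 such pairs in the chromosome 2 block and 27 in that of chromosome 9, where other distances in this range had medians of 1.5 and 0 pairs. Outside the blocks there were 0 pairs on chromosome 2 and 2 on chromosome 9, a contrast that the definition of the blocks by these pairs fixes in part. Other distances in this range had medians of 0 and 4 pairs outside the blocks, and 268 bp had 24 on chromosome 9. In all, 32 of 111 cytosines of the chromosome 2 block (28.8%) and 50 of 199 in the chromosome 9 block (25.1%) had a partner at 234 bp. The pairs described next are those at 234 bp. The pairs were spread unevenly over the blocks. On chromosome 2 all 16 lay in the group of 58 cytosines from 98666262 to 98667326, and the other groups had none. Several of those other groups spanned less than 234 bp and could not hold a pair. On chromosome 9, 8 lay in the group from 3000032 to 3002779 and 12 in that from 3023447 to 3024868. The rest were scattered over further groups along the block, with 2 in the last, from 3035173 to 3035435. These counts use positions and not methylation, though they come from the cytosines that passed into the table.

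The blocks differed in their further spacings. On chromosome 9, 468 bp, the sum of a pair of units, had 13 pairs, and short steps of 12, 28 and 40 bp had 28, 33 and 25. On chromosome 2, 251 bp had 15 pairs and 485 bp, the sum of 234 and 251, had 16. The step of 28 bp was frequent in both, with 10 pairs on chromosome 2. No genome sequence was used here, so the unit is given by its spacing only and the letters of the repeats are not shown.

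**Figure D4:**
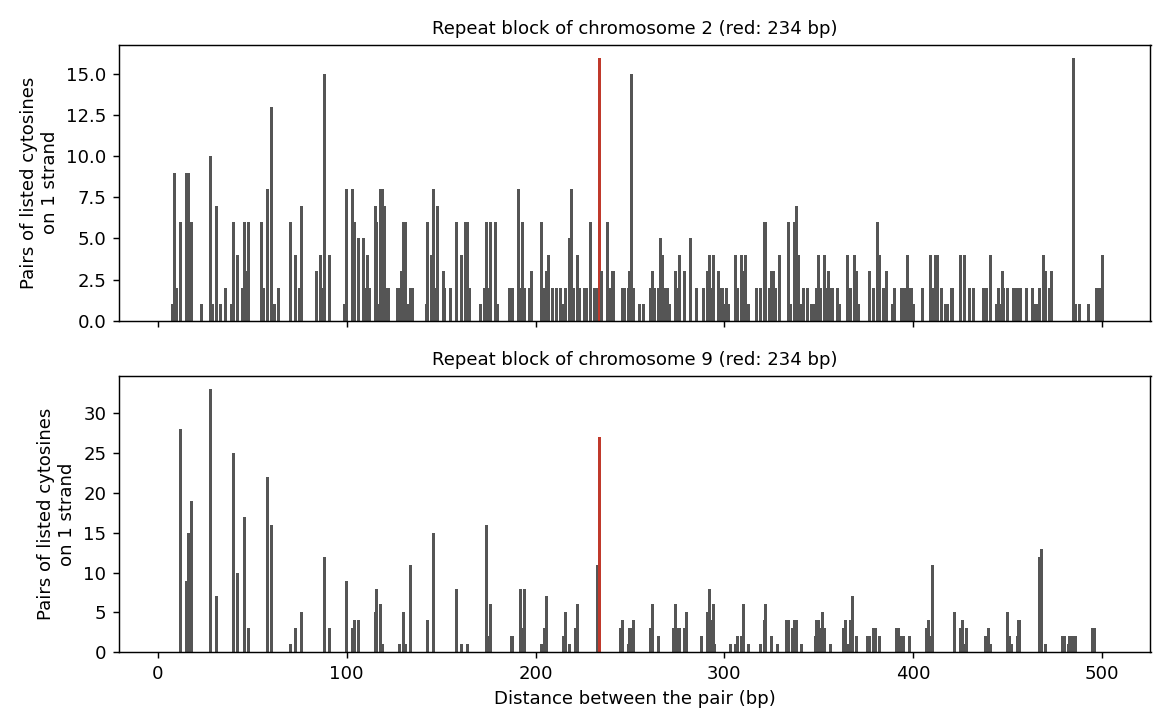
Number of pairs of listed cytosines on the same strand at each distance from 5 to 500 bp in the blocks of chromosomes 2 and 9. The red bar marks 234 bp, with 16 and 27 pairs.

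Cytosines at the same place in neighbouring units could be compared. On chromosome 2 all 16 pairs were positive at both members and 13 were called higher at both. Each plus strand pair has a minus strand pair at the same CpGs, so the same CpGs are counted on both strands. All 16 pairs lie within the run of 48 positive cytosines described above. These counts therefore restate that run, and only the gaps within pairs add to it. At the pair 98666710 and 98666944 the differences were 17.5 and 19.9 points in the authors' deposited table, and at 98666591 and 98666825 they were 30.2 and 22.2. The median gap between members of a pair was 6.95 points, and the largest was 25.5 points, between 98667091 and 98667325.

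On chromosome 9 22 of 27 pairs were positive at both members, and none was called at both. These pairs came from 23 chains of cytosines 234 bp apart, and the middle cytosine of a chain of 3 counts in more than 1 pair. The median gap was 12.9 points and the largest 49.4, between 3028827 at 31.2 points and 3029061 at -18.2 in the authors' deposited table. At 4 minus strand places from 3000342 to 3000634 the second copy had the larger difference: 17.7 and 30.6 points at 3000342 and 3000576, 11.0 and 31.6 at 3000354 and 3000588, 3.96 and 32.8 at 3000382 and 3000616, and 11.1 and 44.5 at 3000400 and 3000634 in the authors' deposited table. Each second member was called and no first member was. These pairs lie in 1 place and were picked after their values were seen.

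**Figure D5:**
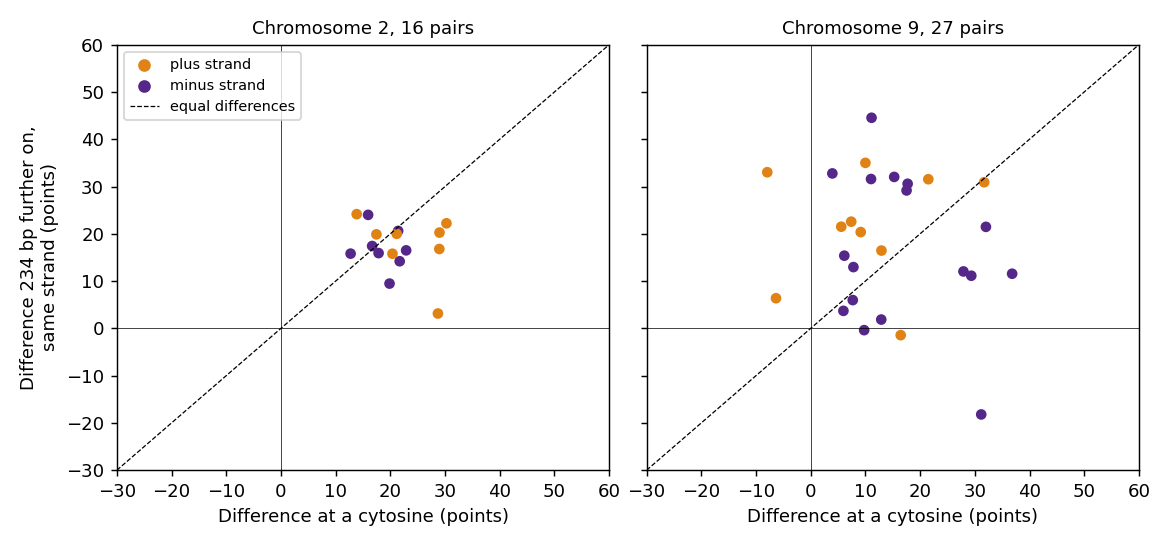
Difference at a cytosine (points) against the difference 234 bp further on along the same strand (points), for the 16 pairs of the chromosome 2 block and the 27 of the chromosome 9 block. Orange is the plus strand, purple the minus strand, and the dashed line marks equal differences. The chromosome 2 pairs are all above 0 on both axes, and those of chromosome 9 spread wider, with a median gap of 12.9 points against 6.95.

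How large a difference had to be for a call was not the same in the blocks. Of differences of at least 20 points in size, 25 of 28 were called in the chromosome 2 block (89.3%), 27 of 79 in that of chromosome 9 (34.2%) and 55.7% over all cytosines. Of those at or under 5 points, 6 of 35 were called in the chromosome 2 block (17.1%), 0 of 29 on chromosome 9 and 0.123% over all cytosines.

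The smallest called difference in the whole table was in the chromosome 2 block, -0.568 points at 98666272 with a q-value of 0.0183 in the authors' deposited table. In the chromosome 9 block the smallest called was 16.8 points and the largest not called was 50.6. A p-value of exactly 0 was listed for 28 cytosines of the chromosome 2 block and for none of the chromosome 9 stretch, out of 347 in the whole table. Calls depend on read depth, which is not in the table, so the part of depth in these contrasts was not tested, and calls in the blocks do not rank by size of difference.

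Outside the blocks lower calls outnumbered higher ones in both stretches, as they did on the rest of chromosomes 2 and 9. Called shares were nearer to those of that rest, 4.92% and 4.71%, than in the blocks. On chromosome 2, 3 of 174 cytosines were higher and 7 lower, a called share of 5.75%. Lower calls were 4.02% and higher ones 1.72%, against 2.85% and 2.07% on the rest of the chromosome. Among windows with at least 5 listed cytosines, that from 98980001 to 98981000 was the highest outside the block, at 12.6 points over 16 cytosines with 1 called, while those from 98093001, 98409001 and 98033001 were lowest, at -6.02, -4.33 and -4.09 points. On chromosome 9, 10 of 503 were higher and 26 lower, a share of 7.16%. Lower calls were 5.17% and higher ones 1.99%, against 2.74% and 1.97% on the rest of the chromosome. The lowest windows of the chromosome 9 stretch with at least 5 listed cytosines started at 3116001, with all 8 cytosines negative and a mean of -12.0 points, at 3238001 with -7.74 and at 3243001 with -7.60.

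Among the windows with the most cytosines, those outside the blocks had means near or below 0. The window from 3888001 to 3889000 had the most listed cytosines of the chromosome 9 stretch, 44, with a mean of 0.774 points and no call. On chromosome 2 the window from 98389001 held 17 with a mean of -0.508 and no call. The windows from 3090001 and 3948001 had 32 and 27 cytosines, 3 and 1 of them lower, with means of -4.70 and -1.01 points. The highest window with at least 5 listed cytosines outside the chromosome 9 block, from 3525001 to 3526000 and picked after its value was seen, averaged 11.9 points over 8 cytosines with 5 called higher. It lies in the interval before Gucy1a2, a gene for a subunit of the nitric oxide receptor.

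The bounds of the stretches do not follow the blocks, except that the chromosome 9 block starts at the first listed cytosine of its stretch. The cytosines just inside those of chromosome 2 had differences of -14.9 and -29.4 points, both called lower, and those just outside had 7.26 and -6.25, not called, in the authors' deposited table. On chromosome 9 the last inside had -6.94 and the first outside 6.77, and no cytosine was listed before the first bound.

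No gene of the table used (RefSeq, assembly GRCm38.p6, the assembly of mm10) overlapped either block. The nearest were Mir101c on chromosome 9 from 3038669 to 3038743, a microRNA gene 3234 bp past the last cytosine of the block, with no listed cytosine and a mean normalized count of 0 in the authors' deposited table, and the long non-coding RNA gene Gm33780, 24589 bp past the chromosome 2 block. The chromosome 2 stretch held 2 genes, neither in the RNA-seq table under its symbol, and the chromosome 9 stretch 12, of which 5 were in it and 3 had an adjusted p.

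Transcripts of those 3 genes did not pass the test. Alkbh8, which modifies transfer RNA, had a log2 fold change of -0.17 (standard error 0.22, adjusted p 0.700), Cwf19l2, a gene named for a splicing-linked protein family, one of -0.41 (0.22, 0.236) and Gucy1a2 one of 0.33 (0.27, 0.488) in the authors' deposited table. Listed cytosines averaged -0.243 points over 32 in Cwf19l2 with none called and -0.561 over 131 in Gucy1a2 with 4 lower, and none was listed in Alkbh8. The non-coding gene 4930433N12Rik was listed with a mean normalized count of 0.482, too low for an adjusted p in the authors' deposited table.

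The starts of 4930433N12Rik and Gm31138 lie head to head in the window from 3199001 to 3200000, the only window of the chromosome 9 stretch with calls in both directions, 4 higher and 6 lower of 38 cytosines with a mean of -1.60 points. The sequence from 250 bases before to 50 after the start of 4930433N12Rik (RefSeq, GRCm38.p6, chr9:3199764-3200063, minus strand) is shown because 7 of its 26 listed cytosines were called, 3 higher and 4 lower. That from Gm33780 (chr2:98710342-98710641, minus strand), the gene nearest the chromosome 2 block, is shown as a contrast with 1 CpG and no call. Capitals mark CpGs with listed cytosines.
4930433N12Rik: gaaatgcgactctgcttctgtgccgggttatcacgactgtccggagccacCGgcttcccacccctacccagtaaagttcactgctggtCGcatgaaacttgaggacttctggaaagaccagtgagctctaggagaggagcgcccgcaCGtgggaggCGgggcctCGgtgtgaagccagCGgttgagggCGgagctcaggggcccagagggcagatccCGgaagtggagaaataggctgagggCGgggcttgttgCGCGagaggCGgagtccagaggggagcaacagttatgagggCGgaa
Gm33780: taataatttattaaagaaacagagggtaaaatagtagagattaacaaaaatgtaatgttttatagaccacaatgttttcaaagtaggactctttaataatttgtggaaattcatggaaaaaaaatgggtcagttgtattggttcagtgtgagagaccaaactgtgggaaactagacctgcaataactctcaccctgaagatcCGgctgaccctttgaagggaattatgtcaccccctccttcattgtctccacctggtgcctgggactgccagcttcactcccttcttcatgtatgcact
In the first sequence 13 of 19 CpGs had both strands listed and CCGG, the MspI site, occurs 4 times. In the second the single CpG lies within the single CCGG. CCGG reads the same on both strands and is found in 52.8% of the 32851 promoter windows of this length.

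Calls of opposite sign lay close together in the first sequence. On the plus strand they were 20.6 points at 3199874 and -14.7 at 3199884 in the authors' deposited table. At the CpG whose strands are listed at 3199820 and 3199821 the differences were -35.3 and -18.6 points, and at that of 3199874 and 3199875 they were 20.6 and 24.4 in the authors' deposited table. Over its 26 cytosines the average was -2.31 points. At the CpG in the Gm33780 sequence the strands had -3.61 and 12.7 points, neither called, in the authors' deposited table. All 277792 listed cytosines that fall in promoter windows of the reference sit on a C of their listed strand, so positions of the table and of these sequences count alike.

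Genes on a heterochromatin and satellite list were read from the RNA-seq table. They mix factors that maintain satellite heterochromatin with genes of other roles, such as Tet1 and Hmga2. Of these 55 symbols, 53 were in the table and 49 had an adjusted p. At an adjusted p under 0.05, 3 of the 49 were higher and 6 lower (18.4%). Over all 11482 tested genes 10.9% were called, 6.15% higher and 4.74% lower. The median log2 fold change of the list was -0.15 and that of all tested genes -0.0027. The list was chosen with results of these data known, so its counts are descriptions. What the called genes have in common with the methylation of the blocks was not tested.

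Genes of histone methyltransferases and HP1 proteins were read first. Suv39h2, a histone H3 lysine 9 methyltransferase gene, fell by 0.97 on the log2 scale (standard error 0.30, adjusted p 0.0187) in the authors' deposited table. The related Suv39h1 had -0.65 (0.28, 0.117), and the HP1 genes Cbx5 and Cbx1 had -0.34 (0.17, 0.209) and -0.14 (0.21, 0.738) in the authors' deposited table. The third HP1 gene, Cbx3, had -0.16 (0.18, 0.653), and the histone H4 methyltransferase gene Suv420h2 had a positive value, 0.30 (0.21, 0.398), in the authors' deposited table. The methyltransferase genes Setdb1 and Suv420h1 had -0.15 (0.25, 0.764) and 0.23 (0.25, 0.637) in the authors' deposited table. Of all these genes only Suv39h2 passed the test.

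Among factors of DNA methylation, Hells fell by 1.09 (0.20, 6.91e-06) and Cdca7, which recruits Hells to chromatin, fell by 1.21 (0.22, 3.87e-06) in the authors' deposited table. Its relative Cdca7l fell by 0.94 (0.25, 0.00431), while Dnmt1 and Uhrf1 had -0.45 (0.27, 0.309) and -0.67 (0.33, 0.194) in the authors' deposited table and did not pass. The de novo methyltransferase genes Dnmt3a and Dnmt3b had 0.29 (0.20, 0.394) and -0.48 (0.28, 0.292) in the authors' deposited table. The Tet1 relatives Tet3 and Tet2 had 0.32 (0.22, 0.396) and -0.15 (0.26, 0.790) in the authors' deposited table. None of these passed either. Cbx3, Suv420h2, Setdb1, Suv420h1, Dnmt3a, Dnmt3b, Tet3 and Tet2 were named after their values were seen. Tet1, whose enzyme oxidises 5-methylcytosine, rose by 0.74 (0.23, 0.0200) and Zbtb4, a methyl-CpG binding factor, by 0.73 (0.25, 0.0337) in the authors' deposited table.

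The AT-hook genes Hmga1 and Hmga2, whose proteins bind AT-rich DNA, fell by 0.94 (0.30, 0.0224) and 1.19 (0.24, 3.23e-05), and the deacetylase gene Sirt6 rose by 0.70 (0.22, 0.0186) in the authors' deposited table. Mean normalized counts of the 9 called genes lay between 173 for Hmga1 and 11684 for Hmga2 in the authors' deposited table.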

How the data were processed

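The authors deposited 1 table per assay, each holding their comparison of 14-3-3ε with control clones. Trim Galore, Bismark, Bowtie2, methylKit, TopHat2, HTSeq and DESeq2 and the build mm10 are named, without version or role, per the submitters' processing notes. The RRBS input was 1 µg of DNA and the size range 150 to 400 bp, per the labels' protocols. In the methylation table each cytosine has, as deposited by the authors, its p-value and q-value, and the group difference in percent methylation, printed here as points. In the expression table the log2 fold change and standard error, a score equal to their ratio, p-values and a mean level, a signal read here as the mean normalized count over libraries, are as deposited by the authors. Of 2361933 lines, 253 exact duplicates were dropped. Depth per library and coverage are not given in these tables, so no interval or floor could be set, and the calls are the authors' own q-values and adjusted p-values.

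Cytosines were averaged without weights over stretches, windows of 1 kb and bins of 1 Mb with Python 3.11.15, numpy 2.4.6 and pandas 2.3.3, and figures were drawn with matplotlib 3.10.9. The search for repeat spacing was tested on simulated data with exact copies planted on the plus strand only. That setting is simpler than the blocks, so it checks the code and not the spacing found. Named windows were the 4 with the most cytosines per stretch, the 3 highest and 3 lowest means among those with at least 5, and those with calls both ways. Named bins were the 3 nearest in called share and the largest in mean size. All genes that overlap a stretch were counted, and all were named except the pseudogenes and the small RNA genes other than Mir101c. Of the heterochromatin list the called ones were named with Dnmt1, Uhrf1, Cbx5, Cbx1 and Suv39h1. The members and lists were chosen with earlier results of these data known. Alternatives were other call limits, strands, window densities, bin minimums and bin bounds.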

Additional observations from a re-analysis of the deposited data

How the results depend on the processing

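Call limits, strands, window densities, averages and bin limits were varied one at a time, and leaving out the repeat blocks was added after seeing the data. Without its block the mean difference changed sign, to -0.0947 points on chromosome 2 and -1.53 on chromosome 9, calls went from 73 to 10 and from 66 to 36, the rank of the called share from 1 to 47 and from 4 to 14, and the rank of mean size from 2 to 6 and from 1 to 19. The count of calls moved to 13 on chromosome 2 and 33 on chromosome 9 with at least 25 points, to 40 on chromosome 9 with q under 0.01, and to 23 and 10 CpGs called on both strands. Windows with at least 20 listed cytosines held 35 of the chromosome 9 calls, and those with fewer held 11 on chromosome 2 and 31 on chromosome 9. On chromosome 2 the mean was 1.02 points over windows, 2.00 as a median, 12.2 in the denser windows and 0.403 in the others, and on chromosome 9 the median was 0.903. With bins of at least 500 cytosines the chromosome 9 stretch ranked 1 in called share, and with bins shifted by 0.5 Mb the chromosome 2 stretch ranked 1 in mean size. The cause was not tested for any of these. The other 19 values kept their direction and were within 1.5 times the main value. No rank with at least 500 cytosines per bin exists for chromosome 2, whose stretch lists 285.

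No paired analysis was possible because the tables hold no value per clone and the clone numbers differ between groups. For the same reason no clone was left out. The depth behind each cytosine is unknown, so its part in the calls was not tested. The chromosome 9 block had large differences that were not called.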
